A study of Mus musculus with 283 samples.

Results

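The genes described here were the matrix metalloproteinases, the ADAMTS proteinases and their inhibitors, the TIMPs, in mouse mammary tumours and mammary glands. Members were chosen by symbol alone, as every row named Mmp, Adamts or Timp followed by a number and at most 1 letter, with the ADAMTS-like genes left out. The rule found 46 of the 45657 gene entries kept, made up of 23 Mmp, 19 Adamts and 4 Timp genes, and all 46 were also in the table of cultured lines. Enough signal for the tests was present for 42 of them, and Mmp1a, Mmp1b, Mmp20 and Mmp21 were too low.

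Matrix metalloproteinases are zinc enzymes that cut collagens, laminins, fibronectin and cell surface proteins, and most are secreted as inactive precursors. ADAMTS enzymes are secreted proteinases that bind matrix and cut proteoglycans such as versican and aggrecan or trim procollagens. TIMPs bind the active sites of these enzymes, and the balance of both sides shapes ducts, fat and stroma as the mammary gland grows and regresses.

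RNA sequencing covered 264 tumour and gland libraries and 6 cultured lines, and 13 exome samples of the same series were not analysed here. Lines were injected orthotopically into syngeneic mice, and animals were assigned to arms once tumours measured 5 mm. The p53 lines (p53-2225L, p53-2336R, p53-2224L, p53-2153F and p53-9263-3) are p53-null, and the exome labels give BALB/c as the strain of T11 and of the p53 lines they hold. KPB-Primary and KPB-1A carry K14-Cre with floxed Brca1 and p53, so that recombination is driven by a keratin 14 promoter, KPB25L belongs to the KPB series by its name, and the exome labels give it FVB. T11-UV and KPB25L-UV are derivatives named for ultraviolet light, and T11-Apobec and KPB25L-Apobec are derivatives named for Apobec, a family of cytidine deaminases, with EF1A, a constitutive promoter, in the names of the cultured lines. The labels class T11-UV, T11-Apobec, KPB25L, KPB25L-UV and KPB25L-Apobec as sensitive and T11, KPB-1A and the p53 lines above as resistant to therapy. Therapy was anti-CTLA4 at 125 ug with anti-PD1 at 10 mg per kg, both injected into the peritoneum bi-weekly, and untreated mice are those the labels give as having no therapy. By the labels, tumours were taken 3 days or 7 days after entry or at end stage. KPB-Primary, C3-TAG, PyMT and ILC-Pik3Ca/Cdh1Null (ILC below) tumours were untreated and taken at end stage, and the labels name no strain, promoter or Cre driver for the last 3 of these. The 10 ILC tumours carry 9 mouse numbers, so 2 of them come from the same mouse. Glands came from BALB/c (5) and FVB (4) mice, and their RNA labels give the tissue as tumour, although adipocyte markers were high in all 9. The labels give no ages, and each transplanted line stands for a single line passed through many mice, so spread between mice is not spread between tumours of separate origin.

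Values are the authors' signal scaled to the upper quartile of each library, given here as log2(signal + 1), so that a difference of 1 is close to a 2-fold change and changes of low genes are understated. These units apply wherever no other scale is named. Differences are given with the standard error of the fit, and adjusted p-values come from limma with Benjamini-Hochberg adjustment over all genes tested, with a gene called at 0.05. Library depth, estimated from the smallest step between values, ran from 3.45 to 149.1 M reads (M, mega) with a median of 51.3 M. In whole tissue, fewer cells of a type and less RNA per cell cannot be told apart. Of 27 KPB25L-UV libraries, 6 carried transcripts of T11 (mean of the 50 genes with the largest T11 excess over KPB25L 6.44 to 8.84, against 1.42 to 4.22 in the other 21 and 9.13 to 9.79 in T11; no member is among the 50), so the therapy and growth counts that include KPB25L-UV are also given without them.

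The cluster of metalloproteinase genes on chromosome 9 (GRCm38, positions 7272514 to 7699585, a span of 427 kb) holds 10 members, in the order Mmp13, Mmp12, Mmp1b, Mmp3, Mmp1a, Mmp10, Mmp8, Mmp27, Mmp20 and Mmp7. AP-1, a dimer of Fos and Jun family proteins, binds the letters TGANTCA, and this site in the promoters of collagenase and stromelysin genes is a textbook example of AP-1 control. RefSeq promoters of GRCm38.p6, which span 250 bases before to 50 after a start, were found for 32 members, and both strands were searched. TGANTCA was present in 8 of the 32, against 2565 of all 32851 promoters (7.81%), and all 8 were genes of the chromosome 9 cluster. TATAAA was present in 11 of the 32, against 13.6% of all promoters. A match describes letters in this window and shows no binding. The 5 promoters below belong to some of the cluster genes that differed between the tumours described next, and all lie on the plus strand. Mmp27 and Mmp7 also differed and are not printed. The Mmp27 window lacked both motifs, and Mmp7 had a window with TGANTCA and another without it. A link between the site and the differences was not tested. Capitals mark TGANTCA, which the Mmp8 window lacks.
Mmp13 promoter, chr9:7272264-7272563: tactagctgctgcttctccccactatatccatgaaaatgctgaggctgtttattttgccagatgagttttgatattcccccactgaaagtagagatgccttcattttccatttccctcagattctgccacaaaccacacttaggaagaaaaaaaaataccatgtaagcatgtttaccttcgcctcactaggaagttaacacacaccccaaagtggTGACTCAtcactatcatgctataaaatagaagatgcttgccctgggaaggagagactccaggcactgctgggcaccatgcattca
Mmp10 promoter, chr9:7502092-7502391: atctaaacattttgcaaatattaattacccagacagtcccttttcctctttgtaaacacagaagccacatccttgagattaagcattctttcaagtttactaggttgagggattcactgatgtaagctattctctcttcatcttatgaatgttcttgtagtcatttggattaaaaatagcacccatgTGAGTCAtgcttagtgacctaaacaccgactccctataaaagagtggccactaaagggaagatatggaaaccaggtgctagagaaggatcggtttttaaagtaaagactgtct
Mmp3 promoter, chr9:7445572-7445871: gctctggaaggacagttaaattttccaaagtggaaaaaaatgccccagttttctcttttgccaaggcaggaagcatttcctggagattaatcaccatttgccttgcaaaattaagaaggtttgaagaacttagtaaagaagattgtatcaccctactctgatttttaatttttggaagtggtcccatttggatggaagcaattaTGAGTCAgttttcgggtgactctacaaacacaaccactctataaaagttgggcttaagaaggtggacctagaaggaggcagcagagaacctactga
Mmp12 promoter, chr9:7347124-7347423: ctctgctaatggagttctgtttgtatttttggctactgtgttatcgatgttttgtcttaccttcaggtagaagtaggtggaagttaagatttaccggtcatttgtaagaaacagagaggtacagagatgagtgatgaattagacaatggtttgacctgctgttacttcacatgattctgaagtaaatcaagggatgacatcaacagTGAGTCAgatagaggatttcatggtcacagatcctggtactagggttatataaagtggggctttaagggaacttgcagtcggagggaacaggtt
Mmp8 promoter, chr9:7558179-7558478: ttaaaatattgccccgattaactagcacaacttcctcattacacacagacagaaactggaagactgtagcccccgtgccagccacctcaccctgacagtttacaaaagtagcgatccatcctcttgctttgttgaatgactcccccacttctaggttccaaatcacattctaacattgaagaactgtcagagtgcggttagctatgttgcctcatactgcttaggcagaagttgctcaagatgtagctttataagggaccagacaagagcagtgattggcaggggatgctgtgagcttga
The site began 35 bases upstream of the start in Mmp13, 63 in Mmp10, 46 in Mmp3 and 44 in Mmp12. A second RefSeq promoter of Mmp12, at chr9:7344147-7344446, held no match.

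**Figure D1:**
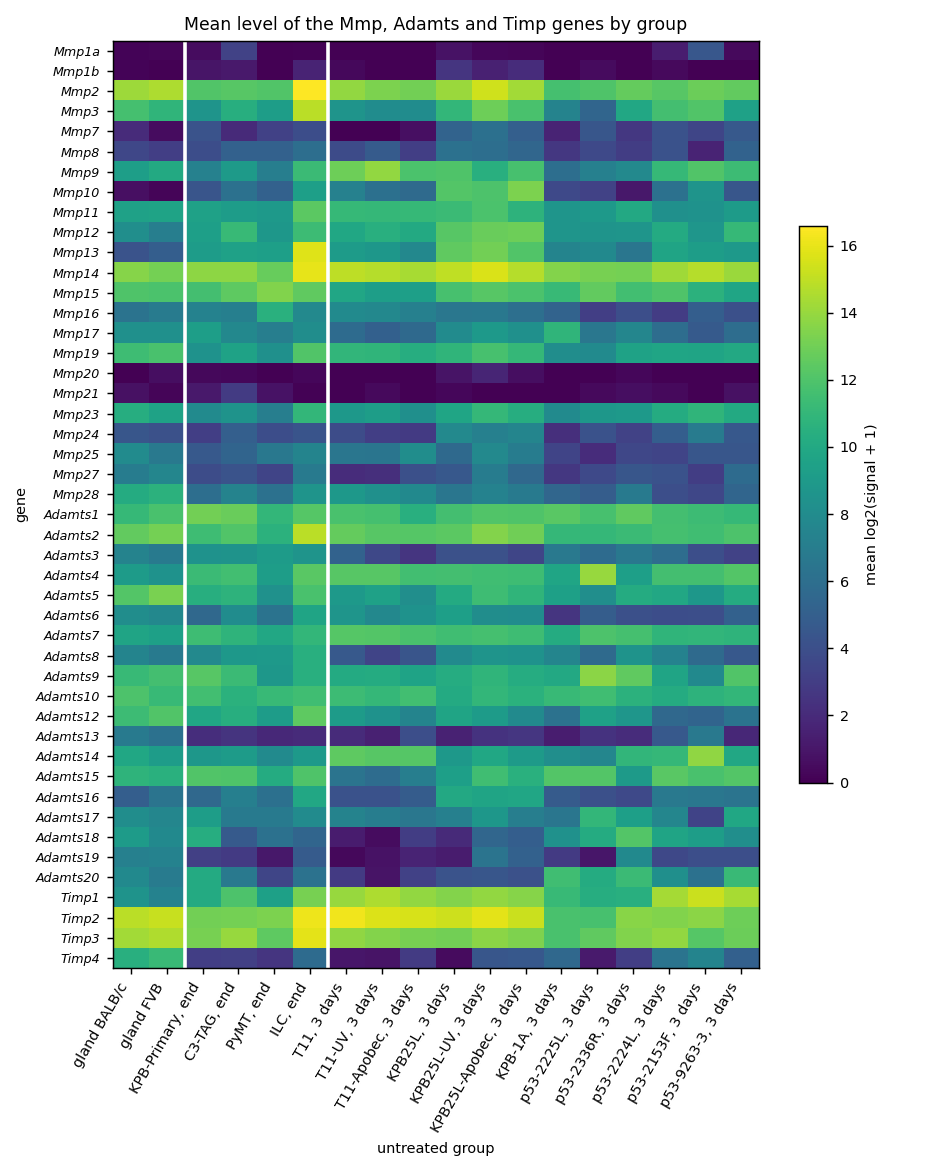
Mean log2(signal + 1) of each of the 46 genes (rows) in the glands, the 4 end-stage models and 12 transplanted models at 3 days, all untreated (columns), with white lines between the 3 sets. Mmp2, Mmp14, Timp2 and Timp3 were high in every group, while Mmp13 and Mmp3 stand out in the ILC column and Adamts18 and Adamts20 differ widely between the transplanted models.

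Levels of different genes were compared per kilobase of exon. Timp2, which both inhibits MMP14 and helps it to activate MMP2, was the highest member in both gland groups (mean log2 signal per kilobase 13.24 ± 0.28 (SD, n = 4) in FVB and 12.89 ± 1.07 (SD, n = 5) in BALB/c), followed by Mmp2, a gelatinase (12.78 ± 0.35 and 12.37 ± 1.74). In ILC tumours Mmp2 was highest (14.83 ± 0.4, n = 10), then Mmp13, a collagenase (14.33 ± 0.89), Timp2 (14.17 ± 0.39) and Mmp3, stromelysin 1 (14.02 ± 0.78). The SDs of these 4 genes in ILC overlapped. Mmp14, a membrane-bound metalloproteinase, led in KPB-Primary (11.18 ± 0.52, n = 24) with Timp2 beside it (11.12 ± 0.74). C3-TAG tumours were led by Timp1, a secreted inhibitor (12.11 ± 0.98, n = 11), and PyMT tumours by Timp2 (11.32 ± 0.89, n = 5) and Mmp15, another membrane-bound enzyme (10.98 ± 0.22).

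The comparison of 50 end-stage tumours of 4 models with 9 glands asked which members differ between tumour and gland. No flow cell is named for PyMT, ILC and some glands, and none of those named for C3-TAG held a gland. KPB-Primary shared a named flow cell with glands only in replicate 21, so sequencing batch and tissue cannot be told apart in these comparisons. Mmp13, Mmp10 (stromelysin 2) and Timp1 rose in all 4 models, and Timp4, an inhibitor abundant in fat, Mmp28 (epilysin), Adamts13, which cuts von Willebrand factor, and Adamts19 fell in all 4. That is 3 of 42 members higher in all 4 models (background 6.72%) and 4 lower (background 10.0%). With FVB glands only, Adamts19 in ILC was no longer called (-2.59 ± 1.17, adjusted p = 0.0827), and with a pseudocount of 16 neither was Mmp10 in PyMT (1.82, adjusted p = 0.0538). Across the 4 models weighted equally, 15 of the 42 members tested were higher (background 31.6% of all 20754 genes) and 15 were lower (background 28.0%), shares close to or somewhat above those of all genes. The median difference was -0.19 over the 19 Mmp genes, -0.50 over the 19 Adamts genes and -0.83 over the 4 Timp genes, against 0.09 over all genes.

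Mmp13 was at 3.02, 4.12, 4.49, 4.68 and 4.71 in the 5 BALB/c glands and at 4.26, 4.59, 5.32 and 5.64 in the 4 FVB glands. It ran from 6.54 to 14.4 with a median of 9.02 in KPB-Primary, from 8.15 to 11.04 (median 9.36) in C3-TAG, through 8.18, 8.5, 8.61, 10.58 and 10.99 in PyMT, and from 14.68 to 16.86 (median 15.74) in ILC. Every tumour lay above every gland, and every ILC tumour lay above every other tumour. The Mmp13 difference between tumours and glands was 6.38 ± 0.51 (adjusted p = 2.85e-16), or 4.61 ± 0.54 in KPB-Primary, 4.94 ± 0.62 in C3-TAG, 4.79 ± 0.77 in PyMT and 11.17 ± 0.63 in ILC.

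Mmp10 was listed at 0 in 2 of 5 BALB/c glands and 3 of 4 FVB glands and reached 1.29 at most. Tumours spread widely, from 0 to 9.95 in KPB-Primary (median 3.67), from 4.55 to 7.31 in C3-TAG (6.34), through 3.0, 3.47, 5.06, 6.58 and 7.56 in PyMT, and from 7.79 to 10.89 in ILC (9.32). C3-TAG, PyMT and ILC tumours did not overlap with glands, whereas some KPB-Primary tumours did. The fitted difference for Mmp10 was 5.83 ± 0.77 (adjusted p = 3.33e-09).

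The inhibitors split. Timp1 ran from 6.9 to 9.01 in BALB/c and from 6.5 to 8.38 in FVB glands, and from 12.74 to 13.66 in ILC (median 13.21), 9.67 to 13.26 in C3-TAG (11.89), 7.26 to 13.2 in KPB-Primary (10.0) and 8.3 to 10.29 in PyMT (9.76). ILC and C3-TAG tumours lay above all glands, and the other models overlapped with them. Timp1 was higher by 3.24 ± 0.35 (adjusted p = 7.53e-12). Timp4 was at 8.0, 10.79, 11, 11.05 and 11.48 in BALB/c glands and at 10.56, 11.17, 11.59 and 11.62 in FVB glands. In tumours Timp4 ran from 0 to 7.83 in KPB-Primary (median 2.24), 0 to 7.86 in C3-TAG (3.01), 0 to 4.72 in PyMT (2.09) and 4.24 to 7.39 in ILC (5.75), below every gland. Its difference was -7.20 ± 0.69 (adjusted p = 1.44e-13).

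Other members called higher across the tumours included Mmp12, the macrophage metalloelastase (2.52 ± 0.55), Adamts4, an aggrecanase (2.29 ± 0.31), and Mmp7, matrilysin (2.04 ± 0.51). Those called lower included Adamts19 (-4.35 ± 0.74), Adamts13 (-4.30 ± 0.41), Mmp28 (-3.37 ± 0.37), Mmp27 (-2.71 ± 0.42) and Adamts5, an aggrecanase and versicanase (-2.36 ± 0.37). Adamts13, which is low in all groups, ran from 3.99 to 7.71 in glands and from 0 to 4.83 in KPB-Primary, the widest tumour group for it. Single models gave 15 higher and 19 lower in KPB-Primary (background 35.8% and 29.2%), 11 and 15 in C3-TAG (background 35.6% and 31.0%), 9 and 20 in PyMT (background 21.6% and 26.4%) and 20 and 6 in ILC (background 18.6% and 23.8%). Models shared the same glands, so these counts are not independent.

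Adipocyte markers fell in all 8 of 8 genes between tumours and glands (median -8.94), and so did all 10 T cell markers (-5.34), all 8 skeletal muscle markers (-6.06) and all 8 endothelial markers (-2.33), while 8 of 10 epithelial markers rose (1.70). The summed adipocyte level ran from 17.4 to 20.82 in glands and from 6.4 to 17.18 in tumours, and the summed skeletal muscle level from 9.09 to 20.21 in glands, with no marker of either list at 0 in every library of a group. Their part in the changes of Timp4, Adamts5 and the other members that fell was not tested. Of 25 partners of the proteases, such as activators, inhibitors and ADAM sheddases, 8 rose and 8 fell, among them Serpine2, a serine protease inhibitor (4.21 ± 0.26), Spint2, an inhibitor of matriptase and hepsin (1.88 ± 0.18), and A2m, a broad protease trap (6.96 ± 0.87). Of 17 matrix substrates, 7 rose and 3 fell, among them Tnc, tenascin C (3.58 ± 0.41), and Acan, aggrecan (7.18 ± 0.85). Of 6 ADAMTS-like genes, 1 rose, Adamtsl2 (2.53 ± 0.33), and 2 fell. Glands of the 2 strains showed no member called (limma; 1 member at unadjusted p under 0.05; background 2.38% in either direction).

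**Figure D2:**
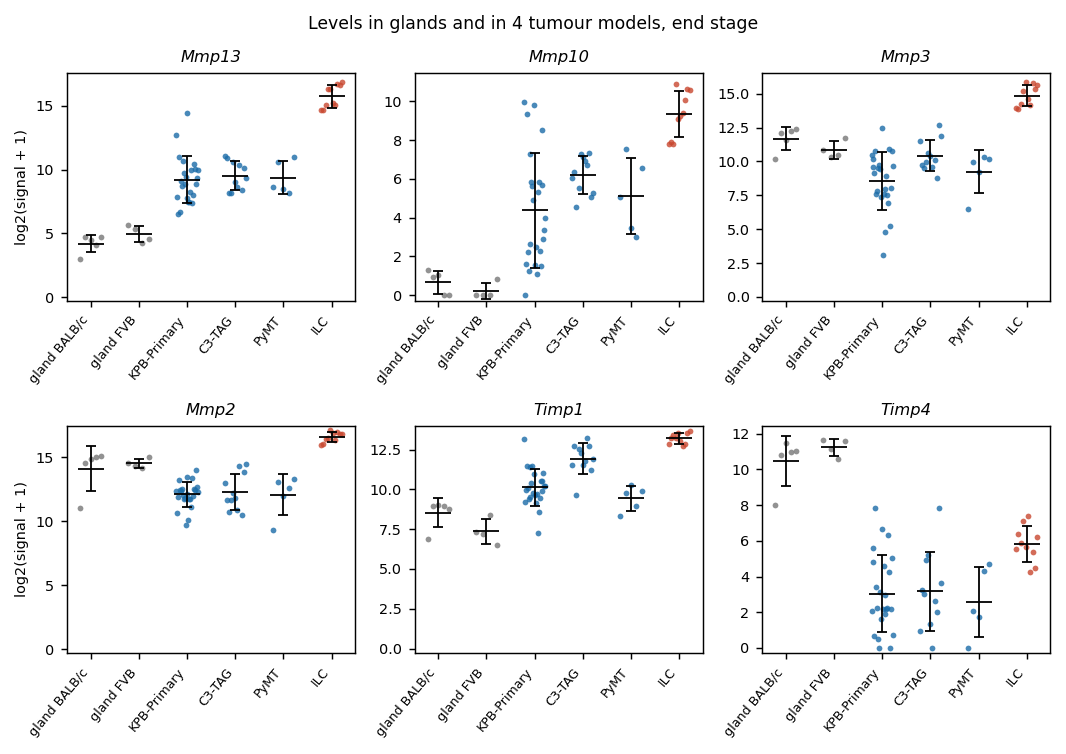
Log2(signal + 1) of 6 genes in each gland (grey), KPB-Primary, C3-TAG and PyMT tumour (blue) and ILC tumour (red), with the mean and SD as bars. Mmp13, Mmp3 and Mmp2 are higher in every ILC tumour than in any other sample drawn, while Timp4 is lower in every tumour than in any gland.

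ILC tumours stood apart from the other 3 models. This comparison was added after the values had been seen. Of 42 members, 26 were higher in 10 ILC tumours than in the 40 KPB-Primary, C3-TAG and PyMT tumours (background 25.5%) and 1 was lower (background 35.0%). The median difference was 1.95 over the 42 members and -0.16 over all genes, and it was 2.58 over the Mmp genes, 2.80 over the Timp genes and 0.41 over the Adamts genes. Cdh1, E-cadherin, the gene that the ILC label gives as null, ran from 11.06 to 12.46 in ILC and from 9.34 to 15.1 in KPB-Primary, 14.59 to 15.5 in C3-TAG and 14.85 to 15.09 in PyMT, so that it overlapped with KPB-Primary and lay below every C3-TAG and PyMT tumour. Its difference was -2.95 ± 0.28 (adjusted p = 2.27e-13), while ILC tumours and glands did not differ by the test (-0.21, adjusted p = 0.658).

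Mmp3 ran from 13.89 to 15.87 in ILC (median 14.92), from 3.08 to 12.47 in KPB-Primary (9.07), from 8.77 to 12.66 in C3-TAG (10.07) and through 6.52, 9.21, 9.96, 10.19 and 10.35 in PyMT. No ILC tumour overlapped with another tumour, and the Mmp3 difference was 5.46 ± 0.58 (adjusted p = 6.12e-12). Mmp2 ran from 15.92 to 17.09 in ILC (median 16.65), above all of KPB-Primary (9.73 to 14.02), C3-TAG (10.49 to 14.48) and PyMT (9.35 to 13.32). Glands lay below every ILC tumour, at 14.53 to 15.13 in BALB/c apart from 1 at 11.03, and at 14.2 to 15 in FVB. FVB glands overlapped with C3-TAG, and the gland at 11.03 lay within the range of each of the other models. The Mmp2 difference was 4.43 ± 0.4 (adjusted p = 4.23e-14).

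Mmp13 was higher in ILC than in the other tumours by 6.39 ± 0.51, Mmp10 by 4.11 ± 0.76, Adamts16 by 3.68 ± 0.67 and Mmp9, gelatinase B, by 3.5 ± 0.58. Adamts16 ran from 8.83 to 10.67 in ILC and reached 10.92 in C3-TAG and 8.93 in KPB-Primary, so that single tumours overlapped. Mmp9 ran from 10.33 to 12.34 in ILC and reached 13.38 in C3-TAG and 11.25 in KPB-Primary. All 4 inhibitors were higher, Timp1 by 2.71 ± 0.35, Timp2 by 2.97 ± 0.25, Timp3 by 2.69 ± 0.28 and Timp4 by 2.89 ± 0.68. Of the 7 tested genes of the chromosome 9 cluster, 6 were higher, and Mmp7 was not called (0.75 ± 0.50, adjusted p = 0.193). Adamts18 alone was lower (-1.64 ± 0.65, adjusted p = 0.0248). It ran from 4.14 to 6.26 in ILC, 5.43 to 12.9 in KPB-Primary and 0 to 10.09 in C3-TAG, and it was no longer called without PyMT replicate 3 (-1.36, adjusted p = 0.0618).

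Those called lower than glands in KPB-Primary and higher than glands in ILC numbered 7 (background 2.2%): Adamts2, a procollagen N-proteinase, Adamts6, Mmp2, Mmp3, Mmp23, Timp2 and Timp3. For Timp2 the differences from glands were -1.95 ± 0.26 in KPB-Primary and 1.10 ± 0.31 in ILC, and the difference between ILC and the other tumours was 2.97 ± 0.25.

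Fibroblast markers were higher in ILC in all 10 of 10 genes (median 4.08), with a summed level of 20.23 to 21.4 against 14.09 to 19.54 in the other tumours and 16.23 to 19.9 in glands. All 10 T cell, 8 adipocyte, 8 endothelial and 8 skeletal muscle markers, 9 of 11 macrophage markers and 5 of 7 mast cell markers were higher too. Their part in the higher members was not tested, and no flow cell was named for the ILC libraries, so a sequencing batch and this model cannot be told apart. Of the protease partners 17 of 25 were higher and none lower, led by Fap, fibroblast activation protein (4.04 ± 0.28), Adam19 (2.62 ± 0.24) and Ctsk, cathepsin K (3.96 ± 0.39). Of the matrix substrates 11 of 17 were higher, led by Bgn (4.17 ± 0.25), Dcn (5.83 ± 0.56) and Fn1 (3.41 ± 0.39), which encode biglycan, decorin and fibronectin. ADAMTS-like genes were higher in 5 of 6.

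Among the 12 transplanted models, 47 untreated tumours taken at 3 days gave the levels of each model. KPB-1A had only 2 of these tumours, so its medians below rest on 2 values. The tumour table itself marks these libraries as taken before treatment, whereas the labels say 3 days, and the labels were followed. All 42 members differed somewhere among the 12 models (limma's moderated F test), and so did 97.2% of all genes, the background, so this count says nothing particular of the members.

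Mmp10 spanned the widest range of medians. It was at 13.39 in KPB25L-Apobec, 12.07 in KPB25L and 11.86 in KPB25L-UV, then 8.88 in p53-2153F, 7.31 in T11, 7.04 in p53-2224L, 6.09 in T11-UV, 5.77 in T11-Apobec, 4.37 in p53-9263-3, 3.63 in KPB-1A, 3.15 in p53-2225L and 1.45 in p53-2336R. The KPB25L family was thus above every other model, while KPB-1A, also from the KPB model, was among the lowest. Adamts18 ran the other way, at 12.21 in p53-2336R, 10.18 in p53-2225L, 9.55 in p53-2224L, 9.18 in p53-2153F, 8.37 in KPB-1A and 8.17 in p53-9263-3, but 5.74 or less in the T11 and KPB25L families, with 0.46 in T11-UV lowest. Adamts20, which cuts versican, was highest in KPB-1A (11.51), p53-2336R (11.27) and p53-9263-3 (11.26) and lowest in T11-UV (0.69).

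Mmp9 ranged from 5.99 in KPB-1A to 13.8 in T11-UV, and Timp1 from 10.34 in p53-2225L to 15.62 in p53-2153F, of which 2 libraries had low depth. Adamts4 was at 14.19 in p53-2225L and at 12.26 or less in the other 11 models. Medians of Adamts10, Adamts1 and Adamts7 spanned the narrowest ranges among members whose medians all exceeded 9. Mmp14 medians ran from 13.12 in p53-2336R to 15.69 in KPB25L-UV.

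T11 and KPB25L, the parents of the derivatives, were compared at 3 times in separate mice. The exome labels give BALB/c for T11 and FVB for KPB25L, and hosts were syngeneic. Line and strain therefore cannot be told apart, in these tumours or in the cultured lines below. Mmp10, Mmp13 and Mmp24 were lower and Adamts14, which processes procollagen like ADAMTS2, was higher in T11 at all 3 times. At 3 days 4 members were higher (background 12.1%) and 14 lower (background 20.4%), at 7 days 6 and 14 (background 17.7% and 21.5%) and at end stage 5 and 16 (background 19.3% and 20.7%). At all 3 times 4 were higher, namely Adamts10, Adamts14, Mmp28 and Timp2, and 11 were lower, namely Mmp7, Mmp10, Mmp12, Mmp13, Mmp15, Mmp17, Mmp24, Mmp27, Adamts8, Adamts15 and Adamts16. Over all genes 8.6% were higher and 12.6% lower at all 3 times (background). Shifting all libraries to the same median moved the median difference of all genes at 3 days from -0.14 to 0.16, and then gave 8 higher and 9 lower at 7 days and 8 higher and 13 lower at end stage. The share of all genes called was then 42.4% at 7 days and 45% at end stage (39.2% and 40.1% unshifted).

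Mmp10 was at 6.37, 6.91, 7.72 and 8.18 in T11 and at 10.67, 12.04, 12.07, 12.61 and 13.29 in KPB25L at 3 days. At 7 days it was at 6.41, 7.89, 8.09 and 9.17 in T11 and at 11.21, 13.16 and 13.48 in KPB25L, and at end stage at 4.53 to 6.7 in T11 and 11.71 to 13.75 in KPB25L. The models did not overlap at any time. Mmp10 differences were -4.84 ± 0.99 (adjusted p = 3.02e-05), -4.73 ± 1.13 and -6.94 ± 0.90.

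Adamts14 was at 12.44, 12.46, 12.52 and 12.53 in T11 and at 6.81, 8.99, 9.21, 9.39 and 9.83 in KPB25L at 3 days. T11 tumours were again all above KPB25L at 7 days (12.19 to 12.71 against 8.25, 8.83 and 10.12) and at end stage (12.41 to 12.89 against 7.36 to 9.6). The Adamts14 difference was 3.64 ± 0.54 at 3 days (adjusted p = 9.97e-09), 3.36 ± 0.61 at 7 days and 4.19 ± 0.49 at end stage. Timp2 was higher in T11 by less, 0.90 ± 0.27, 1.06 ± 0.30 and 0.81 ± 0.24 at the 3 times, and Mmp28 by 2.34 ± 0.62, 3.46 ± 0.71 and 2.89 ± 0.56.

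Mmp7 was listed at 0 in all T11 tumours at the 3 times. In KPB25L it was at 2.82, 3.1, 4.74, 6.16 and 9.52 at 3 days and at 2.75, 4.33 and 6.14 at 7 days. Against a floor of 3 reads per library, mean signal in KPB25L was at least 48.5-fold higher at 3 days, 12.2-fold at 7 days and 5.57-fold at end stage, with estimated reads and counting error only. The Mmp7 bounds rest on the highest KPB25L tumour at each time, and without it they were 7.87-fold, 4.28-fold and 3.27-fold. Adamts16 was at 3.67 to 4.66 in T11 and at 9.33 to 10.96 in KPB25L at 3 days (-5.86 ± 0.95), and Mmp24, a membrane-bound enzyme known from the nervous system, at 3.38 to 4.18 against 6.46 to 9.56 (-3.94 ± 0.76). Mmp13 was at 7.43, 9.24, 9.81 and 9.87 in T11 and at 9.9, 12.81, 12.94, 13.19 and 13.8 in KPB25L at 3 days, where the lowest KPB25L tumour came close to T11 (-3.44 ± 0.74).

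Epithelial markers were lower in T11 in 8 of 10 genes at 3 days (median -7.27), with a summed level of 11.07 to 12.32 against 17.07 to 17.46, and 1 of 11 macrophage markers was higher (summed level 17.64 to 17.77 against 16.92 to 17.57). Their part in the lower members was not tested. At 3 days the T11 and KPB25L libraries came from different flow cells. With flow cell as a term 0 members were called higher and 2 lower, while 1.92% of all genes were called (32.5% without the term). Adamts14 was then at 2.70 ± 1.27 (adjusted p = 0.288), Mmp28 at 1.76 (0.656), Adamts10 at 0.90 (0.48), Timp2 at 1.20 (0.363), Mmp10 at -7.95 ± 2.42 (0.0594), Mmp7 at -7.45 (0.111), Adamts16 at -4.86 (0.3), Mmp24 at -1.91 (0.689) and Adamts8 at -1.51 (0.734), with the adjusted p in parentheses. At 7 days they shared a flow cell and 20 were called. Of the partners 7 of 25 were higher and 6 lower at 3 days, with Spint2 (-6.27 ± 0.70) and Spint1 (-6.00 ± 0.74), epithelial protease inhibitors, and Adam15 (1.15 ± 0.23) first by p. Of the substrates 1 was higher and 5 lower, led by Acan (-10.76 ± 1.20) and Nid1, nidogen (-2.42 ± 0.34). ADAMTS-like genes gave Adamtsl3 higher (4.62 ± 0.80) and 2 lower.

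**Figure D3:**
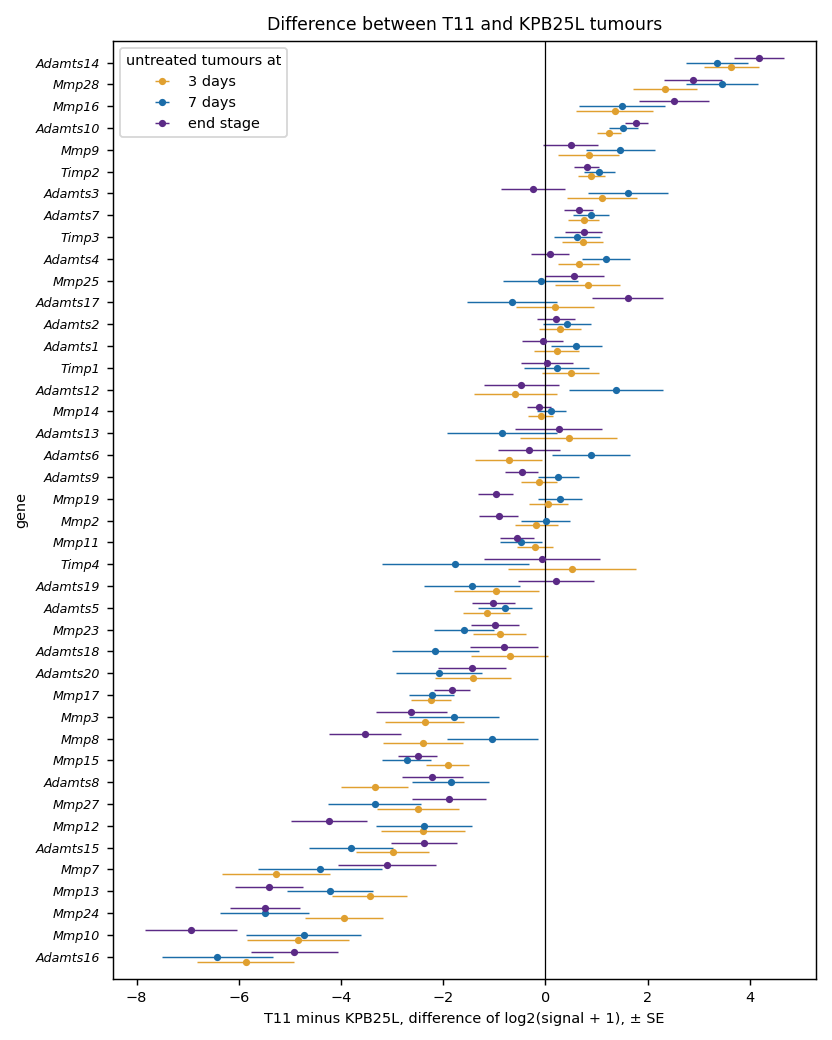
Difference of log2(signal + 1) between untreated T11 and KPB25L tumours with its standard error (x axis) for the 42 genes tested (y axis), at 3 days, 7 days and end stage (colours). Mmp10 falls near -5 to -7 at each time and Adamts14 near 3 to 4.

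In culture, where a line has no host stroma, each line had 1 library and its own scaling, so there was no test and levels cannot be set against tumours directly. The members above 0 numbered 32 in KPB25L, 33 in KPB25L-UV, 27 in KPB25L-Apobec, 32 in T11, 34 in T11-Apobec and 33 in T11-UV. Among the genes above 0 in its library, the median percentile of these members was 42.5, 39.6, 38.9, 45.1, 55.2 and 48.7 in the same order. More than 3 estimated reads were present in all 6 lines for 17 members, among them Mmp2, Mmp9, Mmp14, Timp1, Timp2 and Timp3, and in none of the lines for 11, among them Mmp7, Mmp8, Mmp25, Mmp27, Adamts8, Adamts18, Adamts19 and Timp4.

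Several differences between T11 and KPB25L tumours were also seen between the lines in culture. Adamts14 was at 10.95, 11.15 and 11.66 in T11, T11-UV and T11-Apobec and at 1.21, 0 and 0 in KPB25L, KPB25L-UV and KPB25L-Apobec. Mmp10 ran the other way, at 0.67, 0.46 and 2.74 in the T11 lines and 6.63, 9.94 and 8.63 in the KPB25L lines, and so did Mmp24 (1.63, 2.14 and 3.43 against 7.01, 10.17 and 8.02) and Mmp13 (1.47, 0.46 and 1.18 against 4.03, 6.41 and 4.21). Of the 35 members above 3 estimated reads in at least 1 line, 8 had their lowest T11 line above the highest KPB25L line by 2 or more (background 4.91% of 20823 such genes), namely Adamts2, Adamts9, Adamts12, Adamts14, Mmp2, Mmp16, Mmp19 and Mmp28. The reverse held for 5 (background 3.39%), namely Adamts15, Mmp10, Mmp13, Mmp15 and Mmp24. Other tumour differences were not seen in culture. Adamts16, lower in T11 tumours, was at 4.04, 0 and 0.96 in the T11 lines and 0, 0.85 and 0 in the KPB25L lines. Mmp7, Mmp27 and Adamts8 had more than 3 estimated reads in no line. Timp2 (13.33, 13.46 and 15.38 against 13.74, 13.5 and 13.16) and Mmp17 overlapped between the families.

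Mmp2 differed between culture and tumour: it was at 9.82, 10.41 and 11.01 in the T11 lines and 2.91, 1.38 and 1.63 in the KPB25L lines, while T11 and KPB25L tumours at 3 days had medians of 13.91 and 13.89. Mmp12 was at 0, 0.46 and 0 in the T11, T11-UV and T11-Apobec lines, yet T11 tumours held it at 8.77 to 11.44. The KPB25L, KPB25L-UV and KPB25L-Apobec lines held Mmp12 at 0.99, 3.46 and 2.12. The last 2 were above 3 estimated reads, while the value in KPB25L was level with that floor (0.99 in this line). Mmp9 was at 2.52 in the T11 line, at the 27th percentile, and at 12.37 to 13.85 in its tumours, where its median percentile was 93.0. Timp2 was among the highest genes in both, at percentile 98.6 in the T11 line and 99.8 in T11 tumours.

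**Figure D4:**
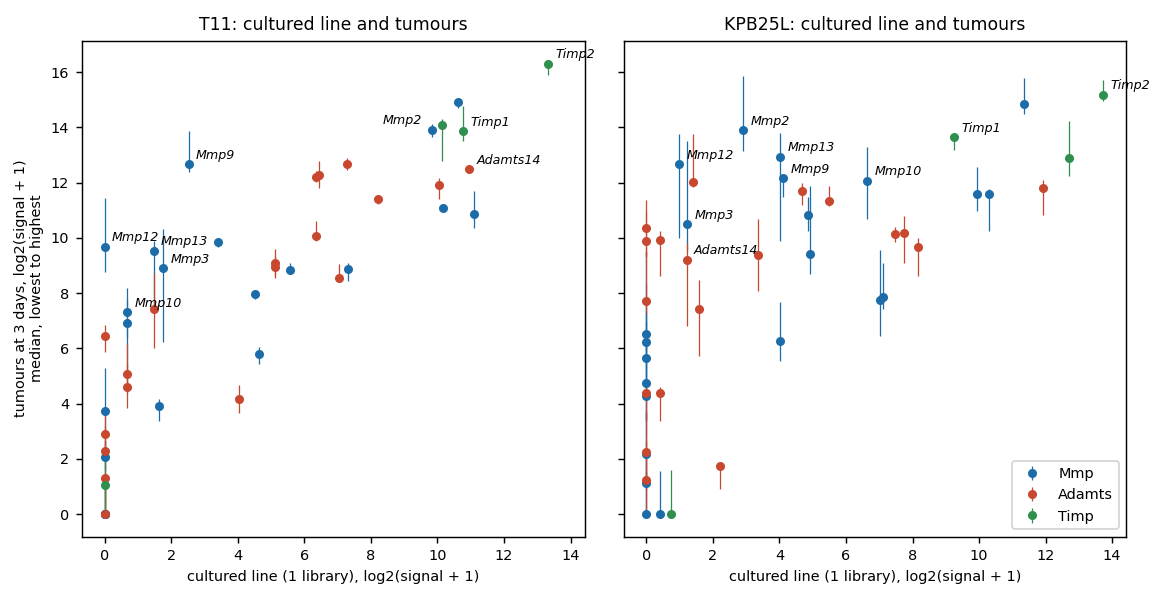
Log2(signal + 1) of each of the 46 genes in the cultured line (x axis, 1 library) and in untreated tumours at 3 days (y axis, median with lowest to highest) for T11 and KPB25L. Mmp12, at 0 in the T11 line, has a tumour median of 9.68, and Adamts14 lies far right in T11 and near the left edge in KPB25L; the 2 axes were scaled separately.

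Therapy was compared with no therapy at 7 days in the 4 sensitive models that have this time (18 treated and 15 untreated tumours). Mmp12 and Adamts15 rose and Adamts17 and Adamts12 fell most, with Mmp12 higher by 1.92 ± 0.43 (adjusted p = 0.000242) and Adamts17, an enzyme linked to fibrillin matrix, lower by 2.14 on the log2 scale (SE 0.41, adjusted p = 1.4e-05). Of 42 members, 7 rose (background 15.5%) and 8 fell (background 21%), which is near the share of all genes. Without the KPB25L-UV libraries that carried T11 transcripts 4 were higher and 13 lower, with 35.0% of all genes called in either direction. By family, 4 of 19 Mmp genes rose and 1 fell, 3 of 19 Adamts genes rose and 7 fell, and no Timp gene was called. The median was 0.33 over the Mmp genes and -0.47 over the Adamts genes, against -0.06 over all genes.

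Mmp12 in T11-Apobec was at 10.03, 10.06, 10.18 and 10.4 untreated and at 13.27, 14.07, 15.63 and 16.52 under therapy. In T11-UV it was at 10.34, 10.52, 10.76 and 12.78 untreated and at 11.45, 12.14, 13.61 and 15.1 treated. In KPB25L-UV it ran from 9.58 to 15.36 untreated and from 11.67 to 16.86 treated, and in KPB25L it was at 12.26, 13.29 and 13.65 untreated and 11.48, 12.54, 12.61 and 14.29 treated. The arms were apart only in T11-Apobec and overlapped in the other 3. Mmp12 rose by 4.70 ± 0.87 (adjusted p = 1.66e-05) in T11-Apobec, a 26-fold change. Without that model the Mmp12 difference over the other 3 was 0.99 ± 0.50 (adjusted p = 0.164).

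Adamts17 in T11-Apobec was at 6.08, 6.48, 7.04 and 7.29 untreated and at 1.42, 1.52, 3.23 and 3.82 treated. In T11-UV it was at 4.95, 5.26, 7.0 and 7.07 untreated and at 1.66, 3.51, 3.69 and 4.55 treated, again with no overlap, while the arms overlapped in KPB25L and KPB25L-UV. Adamts17 fell by 4.23 (SE 0.81, adjusted p = 3.65e-05) in T11-Apobec and the difference in T11-UV was -2.72 ± 0.81 (adjusted p = 0.021).

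Adamts12, which cuts cartilage oligomeric matrix protein, was at 9.21, 9.8, 9.8 and 10.03 in untreated T11-Apobec and at 3.66, 4.65, 6.83 and 7.58 in treated. In KPB25L it was at 6.06, 9.57 and 9.77 untreated and 5.0, 5.1, 6.78 and 7.19 treated, and in T11-UV the arms overlapped fully (3.93 to 8.0 and 4.44 to 10.31). Over the 4 models Adamts12 fell by 1.94 (SE 0.43, adjusted p = 0.000162). Without T11-Apobec its difference was -1.24 ± 0.49 (adjusted p = 0.0697). Adamts7, a vascular matrix protease, was at 11.91 to 12.26 untreated and 10.25 to 11.2 treated in T11-Apobec, and at 11.89 to 12.03 untreated and 8.67 to 11.41 treated in KPB25L-UV. It fell by 0.80 over the 4 models (SE 0.16, adjusted p = 5.24e-05). By model the Adamts7 difference was -1.29 in T11-Apobec and -1.59 in KPB25L-UV, but -0.06 in T11-UV and -0.28 in KPB25L. Both KPB25L-UV arms held libraries with T11 transcripts.

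Adamts15, a versicanase, rose by 1.53 ± 0.38 (adjusted p = 0.000747), with a higher mean under therapy in each of the 4 models. In T11-Apobec it was at 4.36, 4.91, 5.56 and 5.72 untreated and at 6.31, 6.7, 7.84 and 8.57 treated, with no overlap. Mmp3 rose by 1.27 ± 0.41 (adjusted p = 0.00908), and in KPB25L it was at 10.54, 10.85 and 11.25 untreated and at 11.66, 11.94, 12.05 and 12.06 treated. In KPB25L-UV treated tumours held Mmp3 at 12.37 to 13.36, and untreated ones at 8.24, 9.19, 12.2 and 12.84, of which the 2 low ones carried T11 transcripts. Leaving such libraries out gave an Mmp3 difference of 0.80 ± 0.43 over the 4 models (adjusted p = 0.136) and 0.25 ± 0.97 in KPB25L-UV (adjusted p = 0.89).

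The other members called were Adamts19 (1.34 ± 0.44), Mmp27 (1.26 ± 0.42), Adamts18 (1.24 ± 0.39) and Mmp19 (0.58 ± 0.20), higher, and Adamts6 (-1.38 ± 0.35), Mmp16, a membrane-bound enzyme (-1.19 ± 0.40), Adamts3, a procollagen N-proteinase (-1.10 ± 0.36), Adamts9 (-0.47 ± 0.19) and Adamts10 (-0.46 ± 0.13), lower. With flow cell as a term Mmp16 was at -0.52 (adjusted p = 0.486), Adamts3 at -1.29 (0.0589) and Adamts18 at 1.05 (0.153), and with a pseudocount of 16 Adamts3 was at -0.25 (0.331) and Adamts18 at 0.37 (0.114). Adamts19, Mmp27 and Adamts18 were no longer called without the KPB25L-UV libraries that carried T11 transcripts (adjusted p = 0.063, 0.0994 and 0.0585). With T11-Apobec left out, 5 members were called over the other 3 models, 2 higher and 3 lower, while 15.3% of all genes were called in either direction. Adamts6, Mmp16, Adamts3, Adamts18, Mmp27 and Mmp3 were then not called (adjusted p = 0.0757, 0.216, 0.139, 0.0753, 0.108 and 0.0697), besides Mmp12 and Adamts12.

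By model, T11-Apobec had 3 members higher and 10 lower (background 13.6% and 15.6%). Besides those above, Mmp8, neutrophil collagenase, rose from 2.69, 3.21, 3.55 and 3.91 to 5.11, 6.14, 6.77 and 8.01 (3.17 ± 0.82), and Adamts6 fell from 9.83, 9.83, 9.96 and 10.15 to 5.89, 6.6, 8.47 and 8.81 (-2.50 ± 0.70). Neither gene's arms overlapped. Mmp16 fell by 2.33, Mmp28 by 1.77 and Mmp15 by 1.56 there. Without T11-Apobec therapy replicate 1, 6 members were called in T11-Apobec, 2 higher and 4 lower.

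T11-UV had 2 higher and 2 lower (background 4.32% and 3.11%): Mmp25, a leukocyte membrane enzyme, was at 5.88, 5.89, 5.96 and 5.97 untreated and 7.09, 7.82, 9.08 and 9.92 treated (2.55 ± 0.68), and Timp3, a matrix-bound inhibitor, at 12.58 to 12.98 untreated and 13.7 to 14.89 treated (1.61 ± 0.42). Adamts10 fell by 1.12 beside Adamts17. The 2 arms of T11-UV were read on different flow cells, and with flow cell as a term none of the 4 was called (0.0432% of all genes).

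KPB25L-UV had 3 higher and 4 lower (background 8.24% and 11.4%), namely Adamts19 (3.07), Adamts15 (2.39) and Mmp3 (2.14), and Adamts6 (-2.06), Adamts7 (-1.59), Adamts4 (-1.58) and Timp2 (-0.73). Without the libraries that carried T11 transcripts 0 were higher and 7 lower (18.2% of all genes called in either direction). With only the compared groups in the fit none of 39 members tested was called (0.00658% of all genes). Adamts19 was at 0, 0.98, 3.78 and 5.44 untreated and between 2.65 and 7.66 treated, and the 2 lowest untreated tumours carried T11 transcripts. Leaving out such libraries, the difference was 1.81 ± 1.01 (adjusted p = 0.204) for Adamts19 and 1.25 ± 0.85 (adjusted p = 0.313) for Adamts15, and Adamts6 (-2.25, adjusted p = 0.054) and Timp2 (-0.57, adjusted p = 0.241) were not called either. The count moved to 3 without untreated replicate 4 or therapy replicate 4, to 4 without untreated replicate 3 or therapy replicate 2, and to 15, 11 and 13 without untreated replicates 1 and 2 and therapy replicate 5.

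KPB25L had no member called (limma; background 0.0% in either direction; 2 members and 1216 genes at unadjusted p under 0.05), with Adamts12 at -2.45 ± 0.92 (adjusted p = 0.611) and Adamts3 at -1.79 ± 0.78 (adjusted p = 0.765). Resistant T11 had none either (background 0.0%; 1 member and 57 genes at unadjusted p under 0.05), with Timp4 at 1.73 ± 1.33 and Adamts18 at 1.60 ± 0.79. Mmp12 in T11 was at 9.16, 10.43, 10.96 and 12.18 untreated and 7.67, 8.34, 10.68 and 12.38 treated. The effect in the 4 sensitive models minus that in T11 was called for no member (limma; background 0.0048% of genes in either direction; 3 members at unadjusted p under 0.05), with 2.83 ± 0.97 for Mmp12 (adjusted p = 0.324) and -2.54 ± 0.91 for Adamts17 (adjusted p = 0.344). At 7 days T11 was the only resistant model compared, with 4 treated and 4 untreated tumours.

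**Figure D5:**
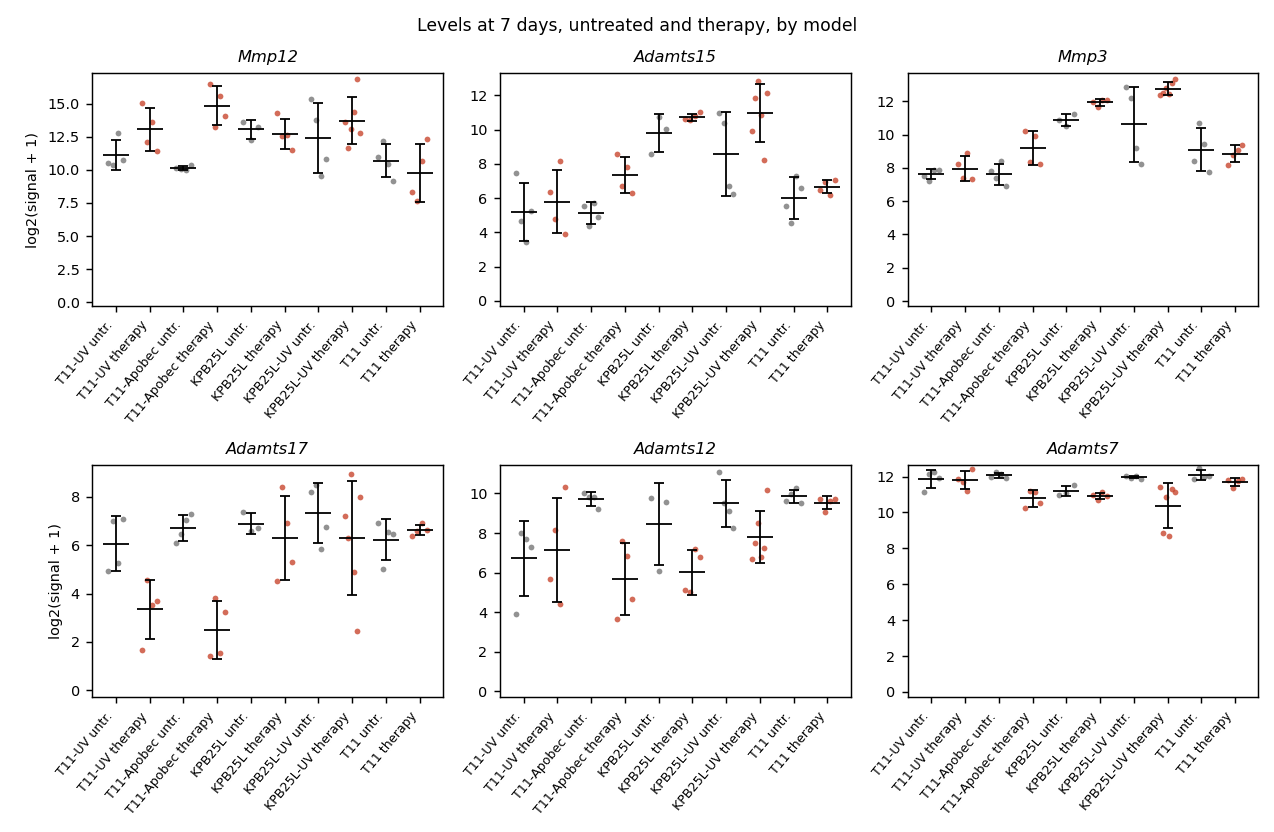
Log2(signal + 1) of 6 genes at 7 days in untreated (grey) and treated (red) tumours of 5 models, each point a tumour, bars the mean and SD. In T11-Apobec the arms are apart for Mmp12, Adamts15, Adamts17, Adamts12 and Adamts7, while in T11 they overlap for all 6 genes.

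T cell markers rose with therapy at 7 days in all 10 of 10 genes over the 4 models (median 2.65), 6 of 11 macrophage markers rose (0.51), and of 10 fibroblast markers 2 rose and 3 fell. In T11-Apobec the summed macrophage level was 17.93 to 18.12 untreated and 19.27 to 19.69 treated, and the summed fibroblast level 18.26 to 18.77 untreated and 16.82 to 17.78 treated, with no marker at 0 in a whole group. Their part in the rise of Mmp12 and the fall of Adamts12, Adamts17 and Adamts6 was not tested. In the cultured T11-Apobec line Adamts12 was at 6.81 and Mmp12 at 0. Among the partners 6 of 25 rose and 3 fell, with Hpse, heparanase (1.56 ± 0.21), Spint2 (2.19 ± 0.37) and Adam8 (0.90 ± 0.25) first by p. Matrix substrates fell in 4 of 17 and rose in none, led by Tnc (-1.22 ± 0.30), Fn1 (-0.88 ± 0.23) and Vcan, versican (-0.79 ± 0.25). ADAMTS-like genes gave Adamtsl5 higher (1.10 ± 0.24) and Adamtsl3 (-1.30 ± 0.42) and Adamtsl2 (-1.16 ± 0.39) lower.

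At 3 days the sensitive models (15 treated, 17 untreated) showed 1 member higher (background 6.93%) and 5 lower (background 6.88%). The tumour table marks the untreated libraries of this time as taken before treatment. If that marking holds, time and therapy cannot be told apart here or in the resistant models at 3 days. Timp1 rose by 0.88 ± 0.30 (adjusted p = 0.0379). In KPB25L it was at 13.19, 13.23, 13.64, 13.66 and 13.8 untreated and at 12.93, 13.97, 14.56, 17.12 and 17.17 treated, in T11-Apobec at 13.72 to 14.02 untreated and 14.21 to 15.42 treated, and in T11-UV at 14.44 to 14.73 untreated and 14.08, 16.02 and 16.43 treated. In KPB25L-UV the mean log2 signal of Timp1 per kilobase was 14.06 ± 0.51 (SD, n = 4) untreated and 14.04 ± 0.71 (SD, n = 3) treated. The arms were apart only in T11-Apobec. Adamts12 (-1.50 ± 0.43), Adamts17 (-1.23 ± 0.41), Mmp15 (-0.69), Mmp11, stromelysin 3 (-0.59), and Mmp17 (-0.58) fell.

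These 3-day counts were unstable. Without the KPB25L-UV libraries that carried T11 transcripts 1 member was higher and 7 lower, with 20.1% of all genes called (13.8% with them). With flow cell as a term no member and 1.3% of all genes were called. None was called either without KPB25L-UV untreated replicate 1, T11-UV therapy replicate 1 or T11-UV therapy replicate 3. Without KPB25L therapy replicate 4, T11-Apobec therapy replicate 2 or T11-Apobec untreated replicate 4 the count was 1, without KPB25L-UV therapy replicate 1 it was 2, and without T11-UV therapy replicate 2 it was 12. Neutrophil markers rose in 5 of 10 and mast cell markers in 4 of 7 genes at this time, and the summed neutrophil level in KPB25L was 9.58 to 10.86 untreated and 9.35 to 15.6 treated; their part was not tested.

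Resistant models at 3 days (14 treated, 11 untreated) showed no member called (limma; background 0.0% in either direction; 1 member at unadjusted p under 0.05), with Mmp3 at 0.79 and Mmp25 at 0.77. At end stage no member was called in the sensitive models (16 treated, 20 untreated; limma; background 0.0288%; 4 members at unadjusted p under 0.05), with Adamts8 at -1.02 and Adamts13 at -0.98, or in the resistant models (13 treated, 18 untreated; background 0.0%; 1 member at unadjusted p under 0.05), with Adamts12 at -1.08 and Mmp12 at 0.85. Adamts17 at end stage was at -0.87 ± 0.39 in the sensitive models (adjusted p = 0.705). Without the KPB25L-UV libraries that carried T11 transcripts limma called 0 members at end stage in the sensitive models and 0 in the difference from T11 at 7 days. The shares of all genes were 0.0576% and 0.024%.

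Untreated tumours of 7 models at end stage were compared with those at 3 days. The tumour table marks the latter as taken before treatment, so the earlier time may be that of entry. No member rose (background 1.06%) and 3 fell (background 4.31%), namely Adamts19 by 1.31 (SE 0.31, adjusted p = 0.00426), Mmp25 by 1.15 (SE 0.24, adjusted p = 0.000918) and Mmp19, a widely expressed metalloproteinase, by 0.66 (SE 0.14, adjusted p = 0.00136). Mmp25 in T11-Apobec was at 7.57, 7.68, 8.24 and 9.09 at 3 days and at 5.55, 5.55, 6.32 and 6.72 at end stage, and in KPB25L-UV at 6.81, 7.99, 8.12 and 8.31 at 3 days and 4.07 to 5.45 at end stage, with no overlap in either model. In p53-2225L it went the other way, from 1.01, 1.97, 2.25 and 3.3 to 2.32, 2.77, 3.0, 3.36 and 4.0. Macrophage markers fell over the same time in 8 of 11 genes, T cell markers in 6 of 10 and mast cell markers in 4 of 7, and their part was not tested. With flow cell as a term 5 members were called, Mmp19 among them, and 7.2% of all genes (5.37% without the term). Adamts19 (-1.58, adjusted p = 0.0726) and Mmp25 (-0.80, adjusted p = 0.242) were then not called. With only these groups in the fit 7 members and 12.8% of all genes were called. Without the KPB25L-UV libraries that carried T11 transcripts 3 members and 5.1% of all genes were.

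Members left out of the tests were low throughout. Of 263 tumours and glands, Mmp1a was above 0 in 49 and reached 6.27, Mmp1b, its neighbour and close relative, in 93 (7.23 at most), Mmp20, the tooth enamel enzyme, in 46 (4.99) and Mmp21 in 88 (4.9). Mmp1a and Mmp1b are close copies, and the assignment of reads between them is uncertain.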

How the data were processed

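RNA was read as paired 50-base ends after the TruSeq mRNA kit, per the labels' protocols, and the submitters' processing notes list STAR, SAMtools, Picard, Salmon and mm10, with no versions used here. The deposited tables hold the authors' signal per gene, scaled to a common upper quartile (about 2046 in tumours and 999 in cultured lines, computed here from the deposited values). Entries whose names had become dates (39) or were repeated (28) were left out, 0.21 to 0.457% of the signal. The 2 libraries of a KPB25L mouse (r = 0.993) were averaged.

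Differences were fitted with limma 3.58.1 in R 4.3.3 on log2(signal + 1), with a trend in the variance and Benjamini-Hochberg adjustment. Genes above 0 in at least 4 samples and in the top 66.7% by mean were tested: 20849 in 192 libraries of 47 groups of classed models (145 residual degrees of freedom), and 20754 in 59 libraries of 6 groups for glands and end-stage models (53). Scripts were tested on simulated data. Replicates are separate mice or tumours per the labels, which give the same mouse numbers to some T11-UV and KPB25L-UV libraries.

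Members and lists were chosen with earlier results of these data known. In each comparison, the rule for per-sample values allowed up to 6 called members per direction with the largest difference, or 2 where none was called. Such values are printed for some of these members. For others a range, a median, a fitted difference or no value is given. Of other lists, up to 3 called genes with the smallest adjusted p were named. The values of 1 gene of these lists are not reported here. Alternatives were another pseudocount, filter, scaling, fit and flow cell term, and libraries or models left out. The ILC comparison with other tumours was added after its values were seen. Exome samples were not analysed here. Depth was estimated from steps between values, and bounds on a gene at 0 use 3 reads per library and cover counting error only.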

Additional observations from a re-analysis of the deposited data

Results flagged for a closer look

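Values of 1 sample lay far from the rest of its group, judged by the gap to its nearest neighbour over the range of the group, for 33 of 398 gene and group pairs checked (8.29%). Chance alone flags about 1 in 20 groups. The cause was not tested for any of them.

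In BALB/c glands a single library, replicate 1, accounted for all 8 pairs and was low in each. Adamts16 was at 0 against 5.01 to 6.92 in the others, and Adamts18 was at 5.99 against 9.23 to 10.17. Adamts19 was at 2.74 against 7.71 to 8.68, and Adamts4 was at 6.46 against 9.27 to 10.25. Mmp19 was at 9.05 against 11.97 to 12.12, and Mmp28 was at 7.59 against 10.67 to 11.15. Timp1 was at 6.9 against 8.8 to 9.01, and Timp4 was at 8.0 against 10.79 to 11.48. Without that gland the members called numbered 28 of 42 in tumours minus glands, 31 in KPB-Primary minus glands and 30 in PyMT minus glands.

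In KPB25L tumours at 3 days without therapy, Adamts14 was at 6.81 in replicate 1 against 8.99 to 9.83, Adamts20 at 3.36 in replicate 1 against 4.36 to 4.68, Adamts8 at 9.5 in replicate 5 against 7.24 to 7.77, Mmp13 at 9.9 in replicate 2 against 12.81 to 13.8 and Mmp9 at 11.47 in replicate 1 against 12.07 to 12.26 in the others. In T11 tumours at end stage without therapy, Adamts10 was at 11.99 in replicate 5 against 11.57 to 11.68, Mmp13 at 6.15 in replicate 2 against 7.95 to 8.51 and Mmp16 at 9.11 in replicate 4 against 8.4 to 8.52 in the others. In FVB glands, Mmp10 was at 0.82 in replicate 4 against 0 throughout, and Mmp16 was at 8.62 in replicate 4 against 6.15 to 6.54 and Mmp7 at 2.13 in replicate 2 against 0 throughout in the others. In T11 tumours at 7 days without therapy, Adamts18 was at 0.9 in replicate 4 against 0 throughout, and Mmp24 was at 0.0 in replicate 2 against 1.89 to 2.01 in the others. In T11 tumours at 3 days without therapy, Adamts19 was at 1.31 in replicate 3 against 0 throughout, and Timp2 was at 15.89 in replicate 2 against 16.29 to 16.32 in the others. In T11-UV tumours at end stage without therapy, Adamts8 was at 5.38 in replicate 2 against 3.89 to 4.07 and Mmp19 at 9.41 in replicate 2 against 10.63 to 10.8 in the others. In T11-Apobec tumours at 7 days without therapy, Mmp16 was at 7.62 in replicate 4 against 8.14 to 8.19 and Mmp28 at 8.33 in replicate 4 against 8.92 to 9.02 in the others. In KPB25L-UV tumours at end stage without therapy, Adamts19 was at 1.23 in replicate 1 against 0 throughout in the others. In T11-Apobec tumours at end stage without therapy, Adamts19 was at 0.91 in replicate 3 against 0 throughout in the others. In T11-UV tumours at 7 days under therapy, Adamts19 was at 2.29 in replicate 3 against 0 throughout in the others. In KPB25L-UV tumours at 7 days without therapy, Adamts6 was at 8.95 in replicate 2 against 9.4 to 9.46 in the others. In p53-2153F tumours at 3 days without therapy, Mmp10 was at 7.67 in replicate 4 against 8.8 to 9.02 in the others. In T11-Apobec tumours at 7 days under therapy, Mmp15 was at 8.13 in replicate 2 against 7.22 to 7.29 in the others.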

How the results depend on the processing

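Counts below are of members called, out of 42 tested unless another number is given. Parentheses hold the main fit, with 42 tested, and shares are of all genes called in either direction. With flow cell as a term, T11 minus KPB25L at 3 days gave 2 (18 otherwise), end stage minus 3 days 5 (3), therapy at 3 days in sensitive models 0 (6) and therapy in T11-UV at 7 days 0 (4). The shares of all genes, in the same order, were 1.92% (32.5%), 7.2% (5.37%), 1.3% (13.8%) and 0.0432% (7.43%). The term could not be fitted with the glands, where 19 libraries name no flow cell. With no filter on low values, therapy at 3 days in sensitive models gave 2 of 46 (6), with 5.66% of all genes called (13.8%). With only the compared groups in the fit, end stage minus 3 days gave 7 (3), with 12.8% of all genes called (5.37%). At 7 days KPB25L-UV then gave 0 of 39 (7), T11-Apobec 21 of 31 (13) and T11-UV 2 of 30 (4). The shares of all genes in these models were 0.00658% (19.7%), 54.9% (29.1%) and 3.56% (7.43%). Without T11-Apobec, an alternative chosen after seeing the data, the sensitive models gave 5 (15), 2 higher and 3 lower. The share of all genes was then 15.3% (36.5%). With FVB glands only, tumours minus glands gave 20 (30), with 48.9% of all genes called (59.6%). The cause was not tested. Ranking over all genes in place of genes above 0 moved the median percentile in culture to 74.0 in KPB25L, 74.2 in KPB25L-UV, 75.4 in KPB25L-Apobec, 76.9 in T11, 79.7 in T11-Apobec and 78.6 in T11-UV, since genes at 0 then count.

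Leaving out each library in turn gave, at 7 days, 14 to 19 in sensitive models, 3 to 15 in KPB25L-UV, 6 to 16 in T11-Apobec and 3 to 4 in T11-UV, and 0 to 12 at 3 days in sensitive models. T11 minus KPB25L gave 14 to 18 at 3 days, 14 to 18 at 7 days and 18 to 22 at end stage, and end stage minus 3 days 3 to 4. Tumours minus glands gave 25 to 31, C3-TAG 24 to 26, ILC 24 to 27, KPB-Primary 31 to 34, PyMT 26 to 30 and ILC minus other tumours 26 to 27. Shares of all genes are not given for these refits, here or above, so the ranges describe the member counts alone. Of 147 named differences that were called, 27 lost the call in at least 1 of 243 refits and 0 changed sign, among them Mmp25 and Adamts17 in T11-UV and Mmp28 in T11-Apobec.

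Of 161 named differences, 147 of which were called, a pseudocount of 16 ended the call of 8, no filter of 7 and shifting libraries to the same median of 2. The totals 161, 92, 154 and 38 here include named differences that were never called, so the shares of calls lost are understated. A flow cell term ended 24 of 92 and fitting only the compared groups 17 of 154. Leaving out KPB25L-UV libraries with T11 transcripts ended 9 of 38, and leaving out T11-Apobec 8 of 12. None changed sign under these alternatives.

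No paired analysis was possible because the labels number no replicates, and no mouse number is shared by groups set against each other. In depth, 3 libraries of p53-2153F and p53-2336R had low depth (3.45, 7.89 and 11.8 M estimated reads).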
